A study of Homo sapiens with 6 samples.

Results

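The 10 genes described here encode ligands that tumour cells present to T cells, natural killer (NK) cells and phagocytes: CD274, CD276, CD47, CD58, LGALS9, PVR, NECTIN2, MICA, MICB and ULBP2. They were picked by name. All 10 were found among the 28278 genes of the deposited count tables, and all 10 were among the 15307 genes that passed the filter on low counts. RNA-Seq was done on HT29, a human colorectal adenocarcinoma line of epithelial shape, in 3 libraries with siRNA against ALDOA (siALDOA) and 3 with scrambled siRNA (siControl). ALDOA encodes the glycolytic enzyme aldolase A, and RNA was taken from both groups at 48 h. The libraries are labelled as biological replicates of this 1 line, and no untransfected cells are among them. The values are mRNA levels, so protein on the cell surface was not measured.

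Tumour cells can restrain or engage immune cells through such ligands. CD274 (PD-L1) binds PD-1 and limits T cell activation, CD276 (B7-H3) is a related B7 protein, and LGALS9 encodes galectin-9, a secreted sugar-binding protein and ligand of TIM-3. CD47 signals to SIRPA on phagocytes to prevent engulfment, whereas CD58 binds CD2 and strengthens contact with T and NK cells. PVR (CD155) and NECTIN2 (CD112) are bound by the activating receptor CD226 and the inhibitory receptor TIGIT, and MICA, MICB and ULBP2 are stress-induced ligands of the activating receptor NKG2D. Interferons are known inducers of CD274 and LGALS9.

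The windows around the start sites of LGALS9, CD274 and PVR are shown because the results below turn on these genes and because their windows hold the motif letters searched for. Each runs from 250 bases before the start site to 50 bases from it onwards, 5′ to 3′ on the strand of the gene, as given by RefSeq on GRCh38.p14. Capitals mark the core of the interferon-stimulated response element in LGALS9, that core and a gamma-activated site in CD274, and a TEAD site in PVR.
LGALS9 (chr17:27630938-27631237, plus strand): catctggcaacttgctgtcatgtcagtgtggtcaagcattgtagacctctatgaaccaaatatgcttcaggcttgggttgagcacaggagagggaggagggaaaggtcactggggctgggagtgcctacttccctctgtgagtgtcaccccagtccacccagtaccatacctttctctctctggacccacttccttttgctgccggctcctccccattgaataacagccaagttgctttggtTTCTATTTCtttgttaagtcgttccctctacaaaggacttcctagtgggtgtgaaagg
CD274 (chr9:5450292-5450591, plus strand): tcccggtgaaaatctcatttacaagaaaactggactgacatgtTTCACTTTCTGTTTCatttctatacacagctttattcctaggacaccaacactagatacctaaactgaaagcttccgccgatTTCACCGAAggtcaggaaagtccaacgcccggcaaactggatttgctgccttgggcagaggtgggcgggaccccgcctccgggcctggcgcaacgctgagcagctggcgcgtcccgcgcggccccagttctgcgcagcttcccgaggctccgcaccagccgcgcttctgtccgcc
PVR (chr19:44643660-44643959, plus strand): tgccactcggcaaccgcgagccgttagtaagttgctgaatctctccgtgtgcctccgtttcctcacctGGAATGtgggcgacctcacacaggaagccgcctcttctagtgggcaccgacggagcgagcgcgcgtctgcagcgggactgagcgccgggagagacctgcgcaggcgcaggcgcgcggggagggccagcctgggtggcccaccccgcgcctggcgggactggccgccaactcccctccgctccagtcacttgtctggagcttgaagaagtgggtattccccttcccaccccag

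The response element core was searched as GAAANNGAA and TTCNNTTTC, the gamma-activated site as TTCNNNGAA, and the TEAD site as GGAATG and CATTCC, so that both strands were covered. In LGALS9 the core ran from base -8 to base 1, where base 1 is the start site. In CD274 there were 2 matches of the core, from -207 to -199 and from -201 to -193, which share bases, and the gamma-activated site ran from -125 to -117. In PVR the TEAD site ran from -182 to -177. The 10 genes had 11 such windows, since CD276 had 2. The core was in 2 of the 11 windows (CD274 and LGALS9), and in 8.11% of 35116 windows of the same length. The gamma-activated site was in 1 of the 11 (CD274) and in 7.66% of all windows, and the TEAD site in 2 of the 11 (CD58 and PVR) and in 14% of all windows. These are matches of letters, and binding was not measured.

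With siALDOA, LGALS9 rose 1.59-fold and PVR fell by 16.6%, and the other 8 ligands did not pass the threshold. The threshold was an adjusted p < 0.05 in edgeR's quasi-likelihood test with Benjamini-Hochberg adjustment over the 15307 genes. Thus 1 of 10 ligands was called higher, beside 4.36% of all tested genes, and 1 of 10 was called lower, beside 5.29% of all tested genes. Of all calls 45.2% were higher, a share that was 76.3% when libraries were scaled by their totals alone. The expression levels, given as CPM of the TMM-scaled library size, did not overlap between the groups and were higher with siALDOA for LGALS9, CD47 and MICA, beside 13.1% of all tested genes. They did not overlap and were lower for PVR, beside 14.6% of all tested genes. The median log2 fold change was 0.052 over the 10 ligands and 0.0016 over all tested genes.

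The libraries held 27277538 to 33237914 counts, and 1 CPM rested on 27.8 to 33 counts. The siRNA target ALDOA averaged 289 ± 13.7 CPM (SD) in 3 siALDOA libraries against 632 ± 38.2 CPM (SD) in 3 siControl libraries, so its mRNA was reduced but not absent. Ribosomal RNA genes took 7.71% to 13.1% of counts with siALDOA and 8.15% to 17.4% with siControl. One library stood apart in each group. The chi-square per degree of freedom of siALDOA replicate 1 against the others of its group was 37.1 and 32.5, beside 4.93 between those, and its ribosomal share was the 13.1%, beside 7.71% and 8.11%. For siControl replicate 3 it was 85.1 and 54.7, beside 10.8, and its ribosomal share was the 8.15%, beside 17.4% and 15.3%. siALDOA replicate 1 was also the siALDOA library with the lowest LGALS9 and CD274, and the part of these library differences in the ligand results was not tested. Without siALDOA replicate 1 or siControl replicate 3, the log2 fold change of LGALS9 was 0.79 or 0.68 and that of PVR -0.24 or -0.25, all past the threshold. Of 11 markers of colonic epithelium 10 were tested, with KRT8 at 5093 CPM and 5595 CPM on average with siALDOA and siControl, while LGALS4 had 0 counts in every library. The lymphocyte markers CD3D, CD3E, CD3G, MS4A1 and GNLY had 0 counts in every library, and the leukocyte marker PTPRC had 1 count in 1 library. The 13 blood cell markers summed to 30.8 to 32.2 CPM with siALDOA and 25.7 to 29.1 CPM with siControl, nearly all from CD14 and CD68. CD14 rose 1.25-fold (adjusted p = 0.0485 in edgeR), a call lost in 6 of 14 alternatives. The part of CD14-expressing cells in the ligand results was not tested. The 8 markers of fibroblasts and endothelium summed to 3.08 to 4.46 CPM.

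**Figure D1:**
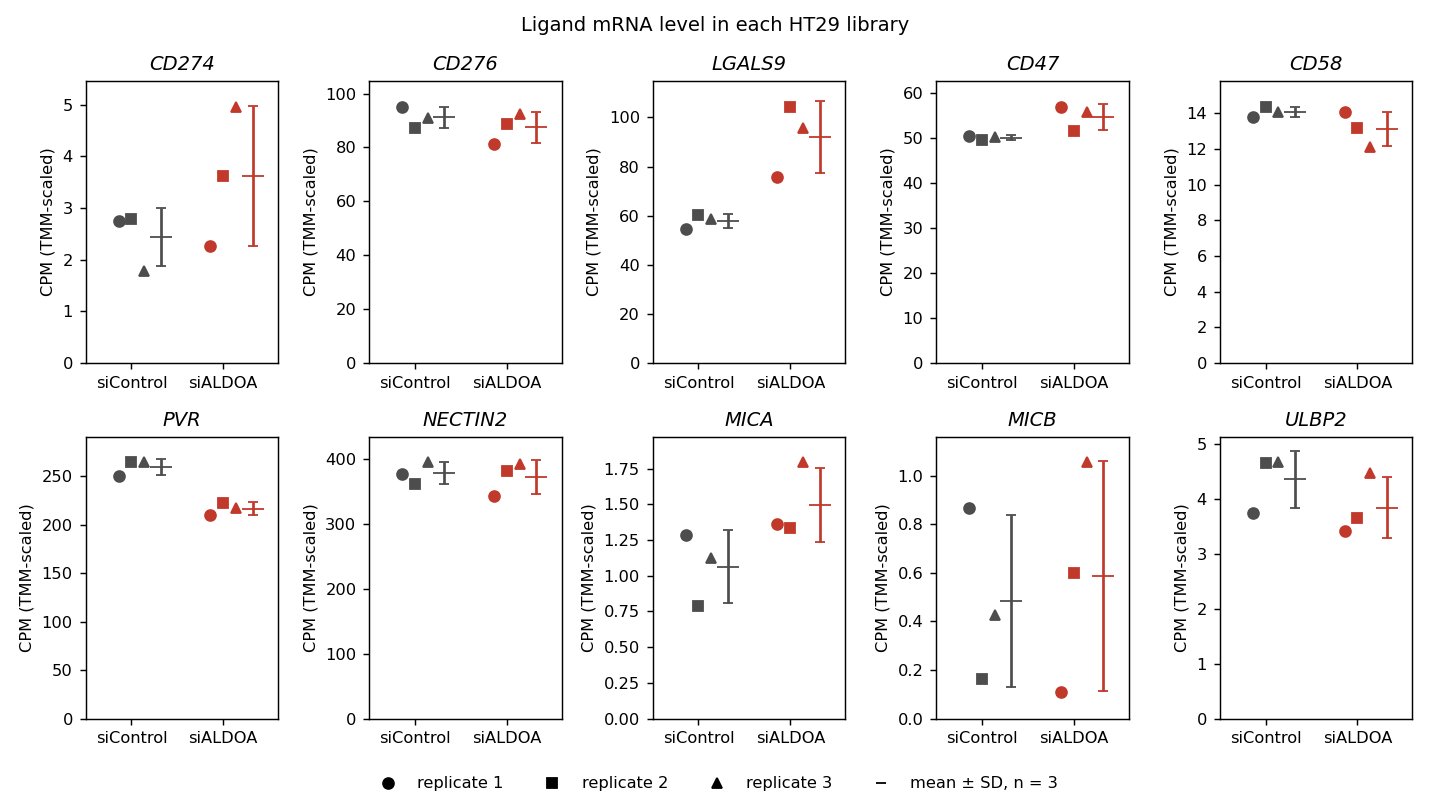
Level of each of the 10 ligands in CPM (TMM-scaled, linear axes from 0) in the 3 siControl and 3 siALDOA libraries, with the mean and SD beside the points and symbols for the replicate numbers. The siALDOA points of LGALS9 lie above all siControl points and those of PVR below, while for CD274 siALDOA replicate 1 lies within the siControl range and the other siALDOA points above it.

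LGALS9 was the 1 of the 10 ligands that rose. It was at 75.8, 104 and 95.8 CPM in siALDOA replicates 1, 2 and 3, and at 54.7, 60.3 and 58.8 CPM in siControl replicates 1, 2 and 3. Every siALDOA library was above every siControl library, with siALDOA replicate 1 nearest to the controls. The means were 92.0 ± 14.7 CPM (SD, n = 3) and 57.9 ± 2.87 CPM (SD, n = 3). The log2 fold change was 0.67 (standard error 0.088, edgeR adjusted p = 2.88e-05), and the 95% interval of the fold change was 1.40 to 1.80. LGALS9 lies at chr17:27629798-27649560 of hg38 on the plus strand (ENSG00000168961, GENCODE release 44), and its RefSeq start site in the window shown lies inside this span. Its near-identical copies LGALS9B and LGALS9C had at most 4 and 20 counts in a library, and adding them to LGALS9 gave the same log2 fold change of 0.67. Another annotated gene, ENSG00000266728, shares 294 exon bases with LGALS9 on the same strand, and reads there cannot be assigned to 1 of the 2 genes. In bulk RNA, a change in the share of cells that express a gene and a change in RNA per cell cannot be told apart.

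The 3 genes with levels most like those of LGALS9 over the 6 libraries were PNPT1, STING1 and GBP1. PNPT1 encodes a mitochondrial RNA-degrading enzyme, STING1 the adaptor of cytosolic DNA sensing, and GBP1 an interferon-inducible GTPase. Likeness was the Euclidean distance of log2 CPM centred on each gene's mean, among 13723 genes with at least 1 CPM on average. The distance was 0.114 for PNPT1, 0.155 for STING1 and 0.169 for GBP1, and the log2 fold changes were 0.75, 0.55 and 0.72.

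CD274 was weakly expressed and varied widely between libraries of a group. It was at 2.26, 3.63 and 4.96 CPM in siALDOA replicates 1, 2 and 3, from 63, 109 and 141 counts. In siControl replicates 1, 2 and 3 it was at 2.76, 2.79 and 1.79 CPM, from 86, 85 and 59 counts. The groups overlapped, because siALDOA replicate 1 was below 2 of the siControl libraries. The log2 fold change was 0.57 (standard error 0.27, edgeR adjusted p = 0.199, unadjusted p under 0.05), with a 95% interval of the fold change of 1.01 to 2.18. Without siALDOA replicate 1 the log2 fold change was 0.81 and passed the threshold (adjusted p = 0.0452). Without siALDOA replicate 3 it was 0.27 (adjusted p = 0.642), and without siControl replicate 3 it was 0.38 (adjusted p = 0.518). CD274 lies at chr9:5450503-5470566 on the plus strand (ENSG00000120217).

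CD276 was at 81.2, 88.8 and 92.5 CPM with siALDOA and 95.1, 87.4 and 90.9 CPM with siControl. Its groups overlapped, and the log2 fold change was -0.06 (95% interval -0.19 to 0.08, edgeR adjusted p = 0.646), or 0.017 with library totals only. CD58, the CD2 ligand, was at 14.1, 13.2 and 12.1 CPM with siALDOA and 13.8, 14.4 and 14.1 CPM with siControl. Its groups also overlapped, with a log2 fold change of -0.10 (95% interval -0.32 to 0.12, edgeR adjusted p = 0.619). CD47, the signal to phagocytes, was at 56.9, 51.5 and 55.8 CPM with siALDOA and 50.5, 49.5 and 50.2 CPM with siControl. Its groups did not overlap, but the difference was small, with a log2 fold change of 0.13 (95% interval -0.01 to 0.27), and it did not pass the threshold (edgeR adjusted p = 0.254). CD276 lies at chr15:73683966-73714514 (plus strand), CD58 at chr1:116514534-116571039 (minus strand) and CD47 at chr3:108043091-108091862 (minus strand).

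Of PVR and NECTIN2, which share receptors, PVR fell and NECTIN2 did not pass the threshold. PVR was at 210, 222 and 217 CPM in siALDOA replicates 1, 2 and 3 and at 250, 264 and 264 CPM in siControl replicates 1, 2 and 3. All siALDOA libraries were below all siControl libraries, and the range within each group was smaller than the gap between them. The means were 216 ± 6.30 CPM (SD, n = 3) and 259 ± 8.25 CPM (SD, n = 3), and the log2 fold change was -0.26 (standard error 0.055, edgeR adjusted p = 0.00386). Scaled by library totals alone, the log2 fold change was -0.19 and did not pass the threshold (adjusted p = 0.171), while with ribosomal RNA genes left out it was -0.26 (adjusted p = 0.00258). PVR lies at chr19:44643798-44666162 on the plus strand (ENSG00000073008). It shares 121 exon bases with CEACAM19, which was at 4.19 CPM, and 2028 with the unnamed annotation ENSG00000279095, both on the same strand.

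NECTIN2, at chr19:44846175-44889223 on the plus strand (ENSG00000130202), was at 343, 382 and 393 CPM with siALDOA and 378, 362 and 396 CPM with siControl. The groups overlapped, and the log2 fold change was -0.02 (95% interval -0.15 to 0.10, edgeR adjusted p = 0.859), or 0.050 with library totals only. It was also above 0 without siALDOA replicate 1 (0.03) and without siControl replicate 3 (0.0088). The log2 ratio of PVR to NECTIN2 was -0.71, -0.78 and -0.85 with siALDOA, compared with -0.60, -0.45 and -0.58 among siControl libraries. The ratio was lower in every siALDOA library, by 0.24 on average (log2 difference -0.24, exact two-sided permutation p = 0.1, n = 3 and 3, the smallest p that 3 against 3 allows). Among the genes most like PVR over the 6 libraries were MTRF1L, a mitochondrial translation release factor, and TLNRD1, an actin-bundling protein. Their distances were 0.036 and 0.052, and their log2 fold changes -0.26 and -0.28.

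The NKG2D ligands MICA, MICB and ULBP2 were expressed at low levels. MICA was at 1.37, 1.33 and 1.80 CPM with siALDOA, from 38, 40 and 51 counts, and at 1.28, 0.786 and 1.12 CPM with siControl, from 40, 24 and 37 counts. The groups did not overlap, with siControl replicate 1 just under the lowest siALDOA library, and the log2 fold change of 0.49 had a 95% interval from -0.20 to 1.18 (edgeR adjusted p = 0.407). MICB had 3, 18 and 30 counts with siALDOA and 27, 5 and 14 counts with siControl. The siALDOA libraries alone spanned the whole range of the siControl libraries, and the log2 fold change of 0.28 had a 95% interval from -1.01 to 1.57 (edgeR adjusted p = 0.836). Its sign turned without siALDOA replicate 3 (-0.43) and without siControl replicate 2 (-0.13). ULBP2 was at 3.41, 3.66 and 4.47 CPM with siALDOA and 3.75, 4.65 and 4.67 CPM with siControl. Its groups overlapped, with a log2 fold change of -0.18 (95% interval -0.57 to 0.21, edgeR adjusted p = 0.622).

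MICA and MICB are similar genes between which reads may be split. With their counts summed, the log2 fold change was 0.43 (edgeR adjusted p = 0.473). The log2 ratio of MICA to MICB was 3.66, 1.15 and 0.77 with siALDOA, compared with 0.57, 2.26 and 1.40 among siControl libraries (difference of means 0.45, exact two-sided permutation p = 0.8, n = 3 and 3). Without siALDOA replicate 1 the difference was -0.45. MICA lies at chr6:31399784-31415315 (plus strand), MICB at chr6:31494881-31511124 (plus strand) and ULBP2 at chr6:149942014-149949235 (plus strand). HCP5, a gene of the same region as MICA and MICB, was at 5.24 ± 0.735 and 3.41 ± 1.28 CPM (SD, n = 3 each; edgeR adjusted p = 0.0870).

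The NKG2D ligands that fell were ULBP1 and ULBP3, which are not among the 10. ULBP1 was at 14.1, 13.4 and 11.1 CPM with siALDOA and 18.7, 18.8 and 18.5 CPM with siControl, and fitted at -0.54 on the log2 scale (standard error 0.11, edgeR adjusted p = 0.00213). ULBP3 was at 6.57, 6.66 and 8.73 CPM with siALDOA and 10.2, 9.93 and 11.3 CPM with siControl, and fitted at -0.52 on the log2 scale (standard error 0.14, edgeR adjusted p = 0.0198). Neither gene's groups overlapped. The call of ULBP3 was lost with library totals alone and without siALDOA replicate 1, siALDOA replicate 2 or siControl replicate 3, with an adjusted p of up to 0.106. RAET1L, a close relative of ULBP2, had a log2 fold change of -0.26 (edgeR adjusted p = 0.712), and RAET1G one of 0.36 (edgeR adjusted p = 0.725). RAET1E had 15, 11 and 10 counts with siALDOA and 0, 4 and 14 counts with siControl. Its log2 fold change was 1.13 (edgeR adjusted p = 0.358). Summed over the 8 NKG2D ligands, the level was 27.3, 27.6 and 29.0 CPM with siALDOA and 36.5, 35.7 and 38.1 CPM with siControl. ULBP1 gave 38.4% to 52.7% of this sum, and MICA, MICB and ULBP2 together gave 15.7% to 25.3%.

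**Figure D2:**
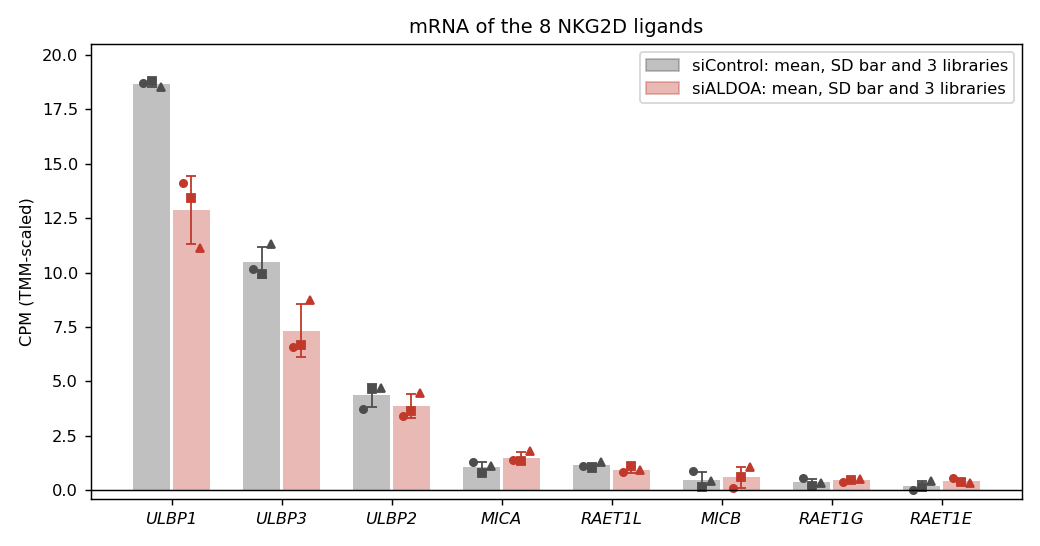
Level of the 8 NKG2D ligands in CPM (TMM-scaled, bars from 0), with bars for the group mean, lines for the SD and points for the 3 libraries of each group. ULBP1 and ULBP3 stand highest and are lower in all siALDOA libraries, while the points of MICB, RAET1L and RAET1G of both groups overlap.

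Per kilobase of canonical transcript, the level of the 10 ligands over the 6 libraries fell in the order NECTIN2, LGALS9, PVR, CD276, CD58, CD47, ULBP2, MICA, CD274 and MICB. NECTIN2 had 128 to 147 CPM per kilobase, and MICB 0.0446 to 0.437. LGALS9, at 31.8 to 60.6 CPM per kilobase, and PVR, at 36.2 to 45.6, had overlapping ranges. MICA, at 0.574 to 1.31, and CD274, at 0.493 to 1.37, overlapped too, and no other neighbours in this order did. With siControl PVR was above LGALS9 in all 3 libraries, and with siALDOA LGALS9 was above PVR in all 3. This scale takes 1 transcript length per gene, so the order may differ for other isoforms.

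**Figure D3:**
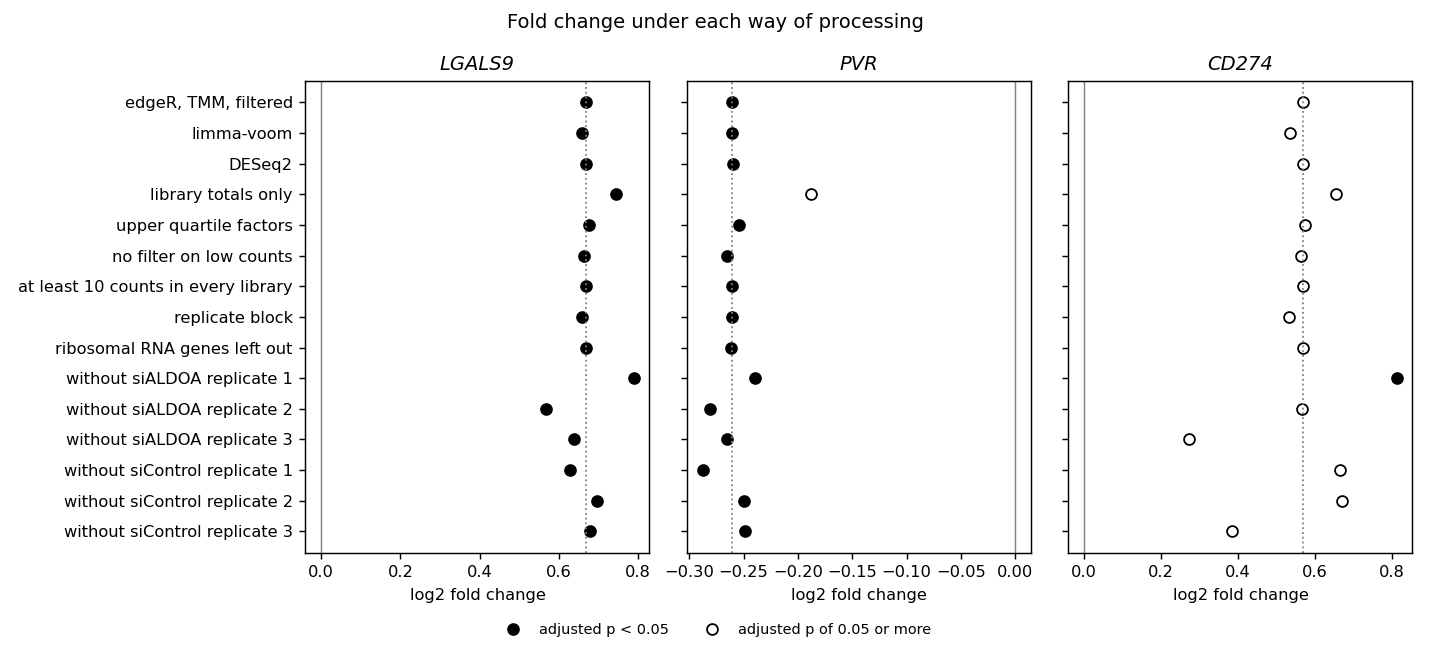
Log2 fold change of LGALS9, PVR and CD274 under the reported fit (dotted line) and 14 alternatives, with filled points for an adjusted p < 0.05. LGALS9 is filled throughout, PVR is open with library totals only, and CD274 is filled without siALDOA replicate 1 alone.

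A further list held 28 other genes, most of them ligands of T cells, and included the enzyme IDO1. Of these, 18 were tested, 4 rose and 0 fell, beside 4.36% and 5.29% of all tested genes. IDO1 was not among the 18. CEACAM1, an adhesion protein that engages TIM-3, rose from 196 ± 8.54 to 252 ± 6.75 CPM (SD, n = 3 each; log2 fold change 0.36, edgeR adjusted p = 2.02e-04). BTN3A1, a butyrophilin needed for gamma delta T cell responses, rose from 21.3 ± 1.65 to 28.8 ± 2.97 CPM (SD, n = 3 each; log2 fold change 0.44, edgeR adjusted p = 0.00439). The family member BTN3A2 (log2 fold change 0.31, edgeR adjusted p = 0.0390) and VSIR, which encodes the checkpoint protein VISTA (0.27, edgeR adjusted p = 0.0419), lay near the threshold. BTN3A2 lost its call in 6 of 14 alternatives and VSIR in 5 of 14. Reads may be split among the similar genes BTN3A1, BTN3A2 and BTN3A3. At an unadjusted p < 0.05 in edgeR, 5 of the 18 were higher and 3 lower, beside 11.3% and 12.3% of all tested genes. At an adjusted p < 0.05, limma-voom called 3 higher and 0 lower, and DESeq2 called 4 higher and 2 lower. The median log2 fold change of the list was 0.015, and -0.046 without the filter on low counts. PDCD1LG2, the other PD-1 ligand, and CD86 had 0 counts in every library.

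Among 18 other ligands of NK cells, 11 were tested, 2 rose and 3 fell, beside 4.36% and 5.29% of all tested genes. At an unadjusted p < 0.05 in edgeR the counts were also 2 and 3, beside 11.3% and 12.3% of all tested genes. Both that rose were HLA class I genes whose products are read by NK receptors, and reads may be shared with other class I genes. HLA-E, the ligand of NKG2A, rose from 183 ± 5.99 to 252 ± 13.2 CPM (SD, n = 3 each; log2 fold change 0.47, edgeR adjusted p = 1.48e-05). HLA-F rose from 12 ± 2.43 to 20.1 ± 2.88 CPM (SD, n = 3 each; log2 fold change 0.75, edgeR adjusted p = 8.27e-04). Besides ULBP1 and ULBP3, NCR3LG1, the NKp30 ligand B7-H6, fell from 42.3 ± 2.31 to 35.4 ± 2.51 CPM (SD, n = 3 each; log2 fold change -0.26, edgeR adjusted p = 0.0371), a call lost in 6 of 14 alternatives. The median of the list was -0.04, and 0.040 with library totals only.

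**Figure D4:**
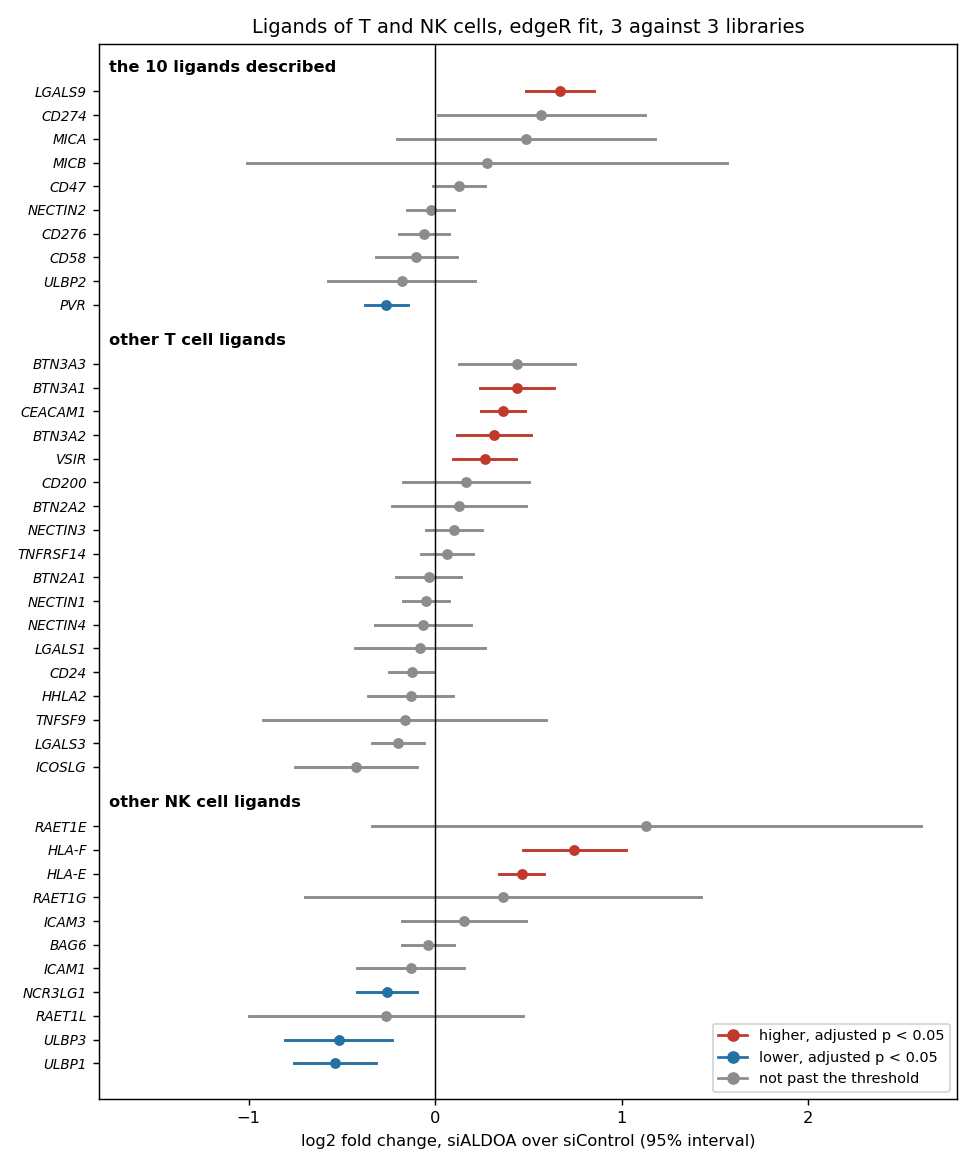
Log2 fold change (siALDOA over siControl, with 95% intervals) of the 10 ligands, 18 other T cell ligands and 11 other NK cell ligands tested, coloured by the call at an adjusted p < 0.05. LGALS9, CEACAM1, BTN3A1, BTN3A2, VSIR, HLA-E and HLA-F are higher, and PVR, NCR3LG1, ULBP3 and ULBP1 lower.

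Of 10 genes that act on the stability, display or shedding of these ligands, 1 fell and 0 rose. Over all tested genes, 5.29% fell and 4.36% rose at the same threshold. CMTM4, which with CMTM6 protects PD-L1 from degradation, fell from 259 ± 3.03 to 204 ± 1.74 CPM (SD, n = 3 each; log2 fold change -0.34, edgeR adjusted p = 1.98e-04). CMTM6 had a log2 fold change of -0.20 (edgeR adjusted p = 0.0631), and the sheddases ADAM10 and ADAM17 had 0.02 (edgeR adjusted p = 0.865) and 0.10 (edgeR adjusted p = 0.354). At an unadjusted p < 0.05 in edgeR, 2 of the 10 were higher and 2 lower, beside 11.3% and 12.3% of all tested genes, and limma-voom and DESeq2 each called 1 higher. The median of the list was 0.022.

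Of 10 genes of interferon gamma signalling, 9 were tested, 4 rose and 0 fell, beside 4.36% and 5.29% of all tested genes. The 10 include the feedback inhibitors SOCS1 and SOCS3 and the repressor IRF2 beside the genes that carry the signal. None of the 4 that rose is SOCS1, SOCS3 or IRF2. IRF1, the factor that binds the CD274 promoter after interferon, rose from 47.9 ± 4.05 to 63.0 ± 5.27 CPM (SD, n = 3 each; log2 fold change 0.39, edgeR adjusted p = 0.00196). STAT3 (log2 fold change 0.26, edgeR adjusted p = 0.00839) and the receptor subunit IFNGR2 (0.27, edgeR adjusted p = 0.0371) also passed, and lost their calls in 2 and 6 of 14 alternatives. The kinases JAK1 and JAK2 had log2 fold changes of -0.15 (edgeR adjusted p = 0.163) and -0.24 (edgeR adjusted p = 0.370). At an unadjusted p < 0.05 in edgeR, 4 of the 9 were higher and 1 lower, beside 11.3% and 12.3% of all tested genes, and neither limma-voom nor DESeq2 called any lower. The median of the list was 0.26, beside 0.0016 over all tested genes.

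Of 18 receptors for these ligands on T, NK and myeloid cells, 3 were tested and 0 were called in either direction by edgeR, limma-voom or DESeq2. Over all tested genes, edgeR called 4.36% higher and 5.29% lower. At an unadjusted p < 0.05 in edgeR, 1 of the 3 was higher and 0 were lower, beside 11.3% and 12.3% of all tested genes. PVRIG, a receptor of NECTIN2, was the most abundant (siALDOA 4.22 ± 0.466 CPM, siControl 3.65 ± 0.823 CPM, SD, n = 3 each). CTLA4, CD28, CD2, NCR1, NCR3, KLRD1 and CRTAM had 0 counts in every library, and 9 of the 18 had at most 3 counts in each.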

How the data were processed

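RNA-Seq counts were analysed for 3 siALDOA and 3 siControl libraries of HT29, grouped by the treatment in the sample labels. The authors mapped the reads with tophat2 on hg38, and gfold gave the counts per gene symbol. The deposited files hold raw counts of 1 library each, without normalization. The submitters' processing notes name TopHat2, edgeR and limma. The annotation, strand setting and handling of multi-mapping reads are not given in the sources used here, so overlapping genes and copies are uncertain.

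Genes were filtered with filterByExpr, scaled by TMM and tested in R 4.3.3 with the quasi-likelihood F-test of edgeR 4.0.16, without covariates, with Benjamini-Hochberg adjustment over all genes tested. Standard errors came from dividing each absolute log2 fold change by the root of its F, and log2 CPM used a prior count of 2. In counts simulated for siALDOA against siControl on 15307 genes, 58%, 88% and 96% of genes changed by log2 folds of 0.5, 1 and 1.5 were recovered, with 6 false among 156 calls. All changes of 1 were decreases and all changes of 1.5 increases. No change below 0.5 was simulated, so these rates do not cover changes as small as that of PVR. Alternatives were limma-voom (limma 3.58.1), DESeq2 1.42.0, other scalings and filters, a replicate block, ribosomal RNA genes left out, copies summed and each library left out. No library pair of a group was as alike as sampling noise, with chi-square per degree of freedom from 4.93 to 85.1.

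Named were the 10 ligands, ALDOA, genes of the other lists past the threshold (up to 5 in each direction), the 3 genes nearest each called ligand, copies, overlapping genes, and the highest receptors and markers. Values of 2 genes that this rule names are not reported here. Other genes named were chosen after their values were seen. The ligands and lists were chosen with earlier results of these data known. Gene positions are from GENCODE release 44 on hg38, and start-site windows from RefSeq GRCh38.p14, matched by symbol for 10 of 10 ligands. Python 3.11.15 with matplotlib 3.10.9 drew the plots.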

Additional observations from a re-analysis of the deposited data

How the results depend on the processing

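Of 32 results, 12 kept their sign and call, or moved by less than the limits set for counts and medians, under every alternative run for them, and 7 changed sign in at least 1 alternative. LGALS9 passed in 15 of 15 alternatives (0.57 to 0.79), and PVR in 13 of 14. With library totals only, PVR had a log2 fold change of -0.19, 0 of the 10 ligands were lower, genes called lower numbered 279 (810 with TMM) and higher 896, NK cell ligands lower numbered 1, and the median of the display list was 0.0947. The median of all genes moved to 0.0753 in that setting. In the display list, limma-voom gave 1 higher, DESeq2 1 higher and 2 lower, no filter 2 lower, and leaving out ribosomal RNA genes 1 higher. DESeq2 also called 2 T cell ligands lower. With at least 10 counts in every library the receptor median was -0.156, and MICB was filtered out. The causes were not tested.

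The replicate block gave 1 T cell ligand lower and 1 higher and 2 lower in the display list, with 987 higher and 1175 lower genes in all. Without the block, 668 genes were called higher and 810 lower. Same-numbered libraries had correlations of deviations of only 0.0262 to 0.0348, though 6 of 6 libraries correlated best with their own number. These values do not settle whether the numbers pair the libraries. PVR (-0.26) and LGALS9 (0.66) passed with the block.

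Leaving out 1 library gave 0.27 to 0.81 for CD274 (past the threshold only without siALDOA replicate 1), 1 to 2 ligands higher, 2 to 4 T cell ligands higher and 0 to 1 lower, 1 to 3 NK cell ligands lower, 1 to 2 lower in the display list, and 2 to 4 higher in the interferon gamma list. Over all genes it gave 359 to 644 higher and 471 to 790 lower. The counts were 359 and 490 without siControl replicate 2 and 363 and 471 without siControl replicate 3. The changes of sign were in values that passed no threshold or had no test. NECTIN2 (reported at -0.02) was at 0.050 with library totals only and at -0.064 to 0.031 when 1 library was left out. CD276 (reported at -0.06) was at 0.017 with library totals only. MICB (reported at 0.28) was at -0.43 to 0.98 and the log2 ratio of MICA to MICB (reported at 0.45) at -0.45 to 1.00 when 1 library was left out. The median of the T cell ligands was -0.0457 without the filter and -0.0417 to 0.0874 when 1 library was left out. That of the NK cell ligands was 0.0397 with library totals only and -0.069 to 0.0264 when 1 library was left out, and that of the receptors is given above.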

Other observations

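KLRK1, which encodes the receptor NKG2D itself, had 14, 16 and 20 counts in siALDOA replicates 1, 2 and 3 and 7, 7 and 5 counts in siControl replicates 1, 2 and 3. The groups did not overlap, and the log2 fold change of 1.51 (standard error 0.52, edgeR adjusted p = 0.0723) did not pass the threshold. Among the epithelial keratins, KRT19 rose (log2 fold change 0.38, edgeR adjusted p = 5.77e-04) and KRT18 fell (-0.28, edgeR adjusted p = 0.0152), the latter a call lost in 5 of 14 alternatives.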
